A study of Mus musculus with 32 samples.

Results

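Retinoic acid is made, moved, sensed and destroyed by a small set of proteins, and 9 of the genes that encode them are described here in the embryonic mouse kidney: the retinal dehydrogenases Aldh1a1, Aldh1a2 and Aldh1a3, the receptors Rara, Rarb and Rarg, the degrading enzyme Cyp26b1, and the cellular binding proteins Crabp1 and Crabp2. They were chosen by name, out of 55806 gene identifiers in the deposited count tables, and all 9 were found in every table. Cells take up retinol, oxidise it to retinal and then, with an ALDH1A enzyme, to retinoic acid, which binds RAR receptors that sit on DNA as heterodimers with RXR receptors. CRABP proteins hold retinoic acid in the cytoplasm and can pass it to receptors or to CYP26 enzymes, which inactivate it. In the developing kidney, retinoic acid made in the stroma is known to keep the receptor gene Ret on in ureteric tips, and retinoic acid is a classical regulator of Hox genes.

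RNA was sequenced in 32 libraries from mouse embryos, some of them controls and the others heterozygous for a conditional, Cre-activated tumor mutation in the YEATS domain of Enl (Mllt1), a histone acylation reader that works with the transcription elongation machinery. The mutations were T1, an insertion, and T3, a small deletion, on a C57BL/6J background. The nephron lineage was targeted with Six2-TGCtg/+, a BAC transgene in which the Six2 promoter drives a GFP-Cre fusion, and the stromal lineage with Foxd1GC/+, a GFP-Cre knock-in that abolishes Foxd1 on that allele. The controls, called WT, were Six2-TGCtg/+;Enl+/+ or Foxd1GC/+;Enl+/+, so they carried the same driver, and the WT libraries of the Foxd1 driver also lacked 1 working Foxd1 allele. Whole kidneys at E18.5 were Six2-driven WT, T1 (EnlT1/+) and T3 (EnlT3/+) with 2 libraries each, and Foxd1-driven WT and T1 with 3 each. Cells positive for a Cre-activated tdTomato reporter were sorted from Six2-driven kidneys at E14.5 and E18.5 (WT and T1, 3 libraries each) and from Foxd1-driven kidneys at E18.5 (WT and T1, 4 each).

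Levels are CPM, read counts divided by library size and scaled with TMM factors within a table. A gene was called where the adjusted p of edgeR's quasi-likelihood test was under 0.05 and the fold over 1.5, except that changes between stages had stricter thresholds, given with them, and interactions needed the adjusted p alone, with no fold. Values in parentheses after a log2 change are its SE and its adjusted p by that test. Total counts were 106005614 to 157266455 in Six2-driven whole kidneys, 76510702 to 137888792 in sorted Six2-lineage cells and 67137194 to 79343015 in Foxd1-driven whole kidneys, but 2557443 to 3508381 in sorted Foxd1-lineage cells, where a gene at 1 CPM rests on about 3 reads. The labels do not say whether libraries of a group came from separate litters, so p-values measure the spread between these libraries. Mllt1 was 85.3, 84.9 and 93.2 CPM in sorted E18.5 Six2-lineage WT libraries and 82.1, 88.9 and 87.5 CPM in T1. Total Mllt1 reads do not separate a mutant from a wildtype allele and so check no label.

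The sorted populations carried the markers of their lineages. The summed level of 7 nephron progenitor markers was 1797 to 2099 CPM in sorted Six2-lineage WT cells at E14.5 and 1077 to 1390 CPM at E18.5. In sorted Foxd1-lineage WT cells at E18.5 it was 141 to 192 CPM. Between the WT lineages at E18.5, 4 of the 7, Six2 among them, were called lower in the stroma and 1, Cited1, higher. The summed level of 8 stromal markers, among them Pdgfra and Col1a1, was 6790 to 9244 CPM in the Foxd1-lineage WT libraries and 329 to 576 CPM in the Six2-lineage WT libraries at E18.5. Podocyte markers, which belong to the nephron lineage, summed to 525 to 902 CPM in sorted Foxd1-lineage WT cells and to 534 to 702 CPM in T1.

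On GRCm38, the synthesis genes lie at chr19:20492715-20643465 (Aldh1a1, plus strand), chr9:71215789-71296243 (Aldh1a2, plus) and chr7:66390890-66427517 (Aldh1a3, minus). The receptors lie at chr11:98927818-98974942 (Rara, plus), chr14:16430839-16819156 (Rarb, minus) and chr15:102234938-102257517 (Rarg, minus). Cyp26b1 lies at chr6:84571414-84593908 (minus), Crabp1 at chr9:54764748-54773110 (plus) and Crabp2 at chr3:87948666-87953376 (plus), and the values are the counts assigned to each gene.

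The sequence that ties these genes to their own signal is the retinoic acid response element, a direct repeat of a 6-base half-site to which RAR and RXR bind as a pair. A RefSeq promoter sequence (GRCm38.p6) was matched for 7 of the 9 genes, not for Aldh1a3 and Crabp2. The 250 bases before each start were searched on both strands for 2 half-sites in the same direction, 1, 2 or 5 bases apart, each of which could be the half-site AGGTCA, its variant AGTTCA, a further variant GGGTCA or a last variant GGTTCA. Of the 12 promoter sequences of these genes, 1 for Rarb held such a repeat and the others did not, with its half-sites 5 bases apart and its first base 53 bases before the start. It is shown because Rarb is the textbook case of a receptor gene that its own ligand turns on. The promoter lies on the minus strand at chr14:16575477-16575726, and the capitals mark the repeat:
Rarb promoter: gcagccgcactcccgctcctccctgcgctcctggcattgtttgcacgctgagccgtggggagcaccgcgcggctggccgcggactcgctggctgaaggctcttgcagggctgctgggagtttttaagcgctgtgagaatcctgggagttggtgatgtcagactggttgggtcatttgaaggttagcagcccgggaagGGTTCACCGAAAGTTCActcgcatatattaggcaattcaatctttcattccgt
Repeats of these half-sites spaced by 5 bases were found in 29 of 32851 promoter sequences (0.0883%), and a repeat of any of the 3 spacings in 140 (0.426%). A match is a description of the letters in this window and says nothing of binding in these cells.

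In sorted WT cells Aldh1a2 had the highest level of the synthesis genes, and it was higher in the Six2-lineage than in the stromal libraries. Per kilobase of exon, the Aldh1a2 level in sorted WT cells was 305 CPM per kb ± 8.66 (SD, n = 3) in the Six2 lineage at E14.5, 308 ± 17.8 (n = 3) at E18.5 and 64.2 ± 12.5 (n = 4) in the Foxd1 lineage at E18.5. Aldh1a3 was at 5.23 CPM per kb ± 0.757 (n = 3) and Aldh1a1 at 1.30 ± 0.0826 (n = 3) in the Six2 lineage at E18.5, far below Aldh1a2. Against sorted Six2-lineage WT cells, sorted Foxd1-lineage WT cells had lower Aldh1a2 (log2 change -2.06, SE 0.10, adjusted p = 5.47e-14) and Aldh1a3 (-1.51, SE 0.22, adjusted p = 1.69e-06). Aldh1a1 had 6.05, 6.85 and 6.31 CPM in the Six2-lineage and 1.18 to 3.66 CPM, or 4 to 9 reads, in the stromal libraries, and it entered this test only through the Six2-lineage libraries, so its lower call is given as a description. Rarg and Rarb ran the other way, as Rarg was higher in the stroma by 2.13 (SE 0.13, adjusted p = 2.14e-12) and Rarb by 1.76 (SE 0.11, adjusted p = 1.69e-12). Cyp26b1 averaged 4.01 CPM in the stromal and 1.90 CPM in the Six2-lineage WT libraries. It entered this test only through the stromal libraries, so its higher call is given as a description. Of the 9 genes, 3 were called higher in the stroma, Cyp26b1 among them, where 34.7% of all 14869 genes tested were, and 3 lower, Aldh1a1 among them, where 38.0% were. The lineages were sequenced in separate runs with different read lengths and at very different depths, so lineage and run cannot be told apart in these values.

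The 3 receptors differed in where they were expressed. Per kilobase of full exon length, Rara had the highest receptor value in each sorted WT population, at 10.9 CPM per kb ± 0.396 (SD, n = 3) in the Six2 lineage at E14.5, 11.4 ± 0.211 (n = 3) at E18.5 and 13.1 ± 1.58 (n = 4) in the stroma. However, Rarb overlaps other genes over 38.4% of its exon length, and counting ignored strand. The level of Rarb per kilobase, and so its rank against Rara, is uncertain. Rarg was the lowest receptor in the Six2 lineage, at 0.639 CPM per kb ± 0.126 (n = 3) at E14.5. In whole kidneys it was level with Rara, at 13.9 CPM per kb ± 1.71 (n = 3) against 13.7 ± 1.03 (n = 3) in Foxd1-driven WT. Cyp26b1 was likewise a gene of the whole organ: 36.2 and 41.1 CPM in Six2-driven WT kidneys but 1.71, 2.01 and 1.97 CPM in sorted E18.5 Six2-lineage WT cells, and 2.92 to 5.04 CPM in the sorted WT stroma. Aldh1a3 too was higher in whole kidneys, averaging 138 CPM in Six2-driven and 79.3 CPM in Foxd1-driven WT. In sorted E18.5 WT cells Aldh1a3 averaged 24.1 CPM in the Six2 lineage and 7.26 CPM in the stroma. Whole and sorted libraries were made with different kits and their tables were normalized separately, so no test was made between them.

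**Figure D1:**
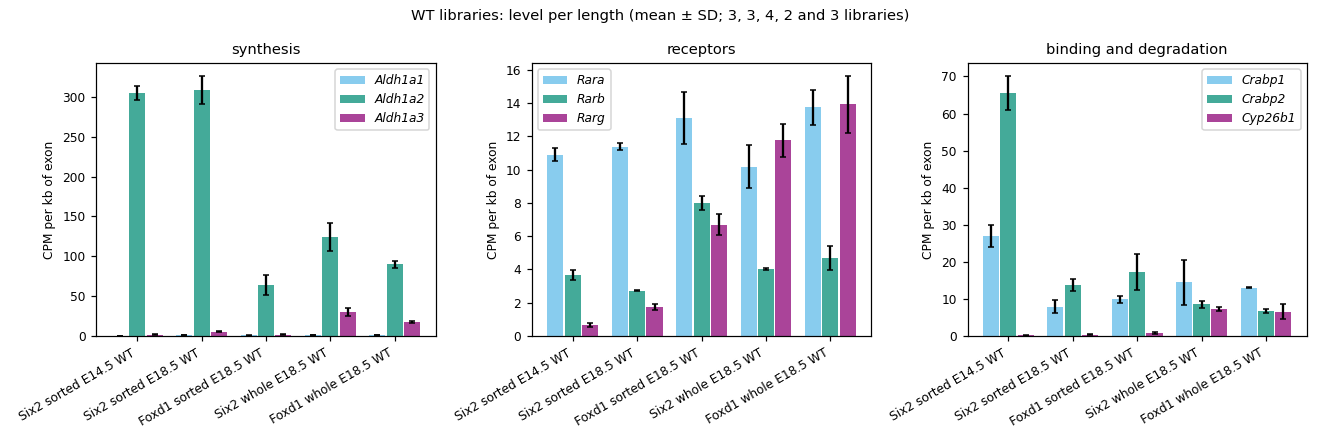
Mean level per kilobase of exon (CPM per kb, bars, with SD) of the synthesis genes, the receptors, and the binding proteins with Cyp26b1, in the 5 WT groups. Aldh1a2 stands highest among the synthesis genes in each group and reaches 308 CPM per kb in sorted E18.5 Six2-lineage cells, and Rara stands highest among the receptors in the 3 sorted groups. Rarb overlaps other genes over 38.4% of its exon length, so its bars and its rank against Rara are uncertain.

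Between E14.5 and E18.5, most of the set moved in normal Six2-lineage cells. With the stage thresholds (adjusted p under 0.01, fold over 2), 4 of the 9 genes rose, where 24.8% of 25222 genes tested did, and 2 fell, where 20.6% did. Both binding proteins fell: Crabp2 was 92.6, 86.9 and 80.4 CPM at E14.5 and 16.9, 17.1 and 20.7 CPM at E18.5 (log2 change -2.25, SE 0.09, adjusted p = 9.47e-12), and Crabp1 was 23.1, 18.8 and 22.8 CPM at E14.5 and 4.95, 7.73 and 6.21 CPM at E18.5 (-1.77, SE 0.16, adjusted p = 1.25e-07). Neither gene's libraries overlapped between stages. Aldh1a1 rose from 0.0546, 0.428 and 0.336 CPM to 6.05, 6.85 and 6.31 CPM (4.54, SE 0.64, adjusted p = 1.49e-05), Aldh1a3 rose by 1.74 (SE 0.20, adjusted p = 1.65e-06), Rarg by 1.46 (SE 0.20, adjusted p = 1.07e-05) and Cyp26b1 by 1.96 (SE 0.39, adjusted p = 0.000447). Rarb, at -0.43 (SE 0.08, adjusted p = 0.000397), stayed under 2-fold, and Aldh1a2 and Rara were not called, with log2 changes of 0.02 (SE 0.05) and 0.06 (SE 0.06). Cells at E14.5 were freed with trypsin and at E18.5 with collagenase, so stage and dissociation cannot be told apart. Podocyte markers summed to 98.1 to 126 CPM at E14.5 and to 3127 to 3654 CPM at E18.5 in these WT cells, and the part of that shift in these values was not tested. In bulk samples, fewer cells of a type and less RNA per cell cannot be told apart.

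**Figure D2:**
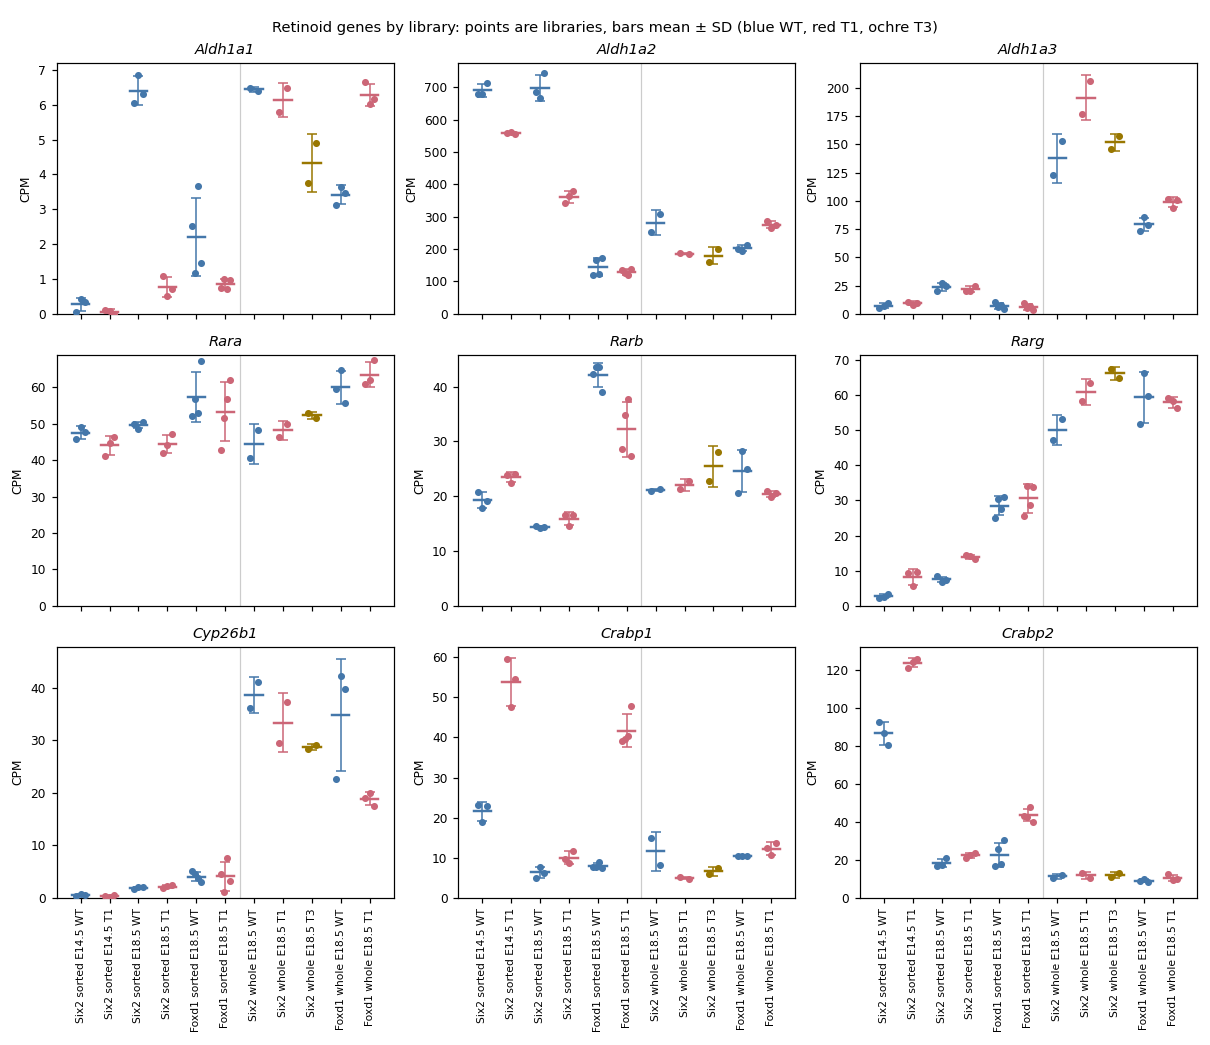
CPM of each gene in each of the 32 libraries (points), with the mean and SD of each group, sorted cells left of the grey line and whole kidneys right of it. The 4 sorted stromal T1 libraries hold Crabp1 at 39.1 to 47.9 CPM against 7.29 to 8.95 CPM in WT, while Aldh1a2 falls from WT to T1 in sorted Six2-lineage cells.

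Crabp1 was the gene of the set that rose in each of the 3 sorted T1 populations. In the sorted stroma it was 7.57, 7.66, 8.95 and 7.29 CPM in WT and 39.1, 39.6, 40.3 and 47.9 CPM in T1, a 5.32-fold rise (log2 change 2.41, SE 0.14, adjusted p = 4.34e-09). In sorted Six2-lineage cells at E14.5 it was 23.1, 18.8 and 22.8 CPM in WT and 59.5, 47.5 and 54.5 CPM in T1 (1.34, SE 0.11, adjusted p = 0.000226). At E18.5 it was 4.95, 7.73 and 6.21 CPM in WT and 9.55, 8.61 and 11.7 CPM in T1 (0.67, SE 0.17, adjusted p = 0.0119), and the groups did not overlap in any of the 3 populations. The E18.5 rise lost its call without WT library 1 (0.52, adjusted p = 0.0345, under 1.5-fold) and without T1 library 3 (0.53, adjusted p = 0.0774). The stromal rise was larger than the nephron-lineage rise at E18.5: the lineage by genotype interaction for Crabp1 was 1.73 (SE 0.24, adjusted p = 2.67e-05). The stage by genotype interaction was -0.66 (SE 0.22, adjusted p = 0.0853) and was not called. Of 10 macrophage markers, 6 rose in the sorted stroma, where their sum was 146 to 381 CPM in WT and 322 to 451 CPM in T1, and 9 rose in sorted Six2-lineage cells at E18.5, from 23.2 to 28.1 CPM to 93.9 to 107 CPM. The sum of 4 red cell markers in those E18.5 cells was 80.3 to 158 CPM in WT and 1162 to 1712 CPM in T1, with 3 of the 4 called higher. The macrophage sum at E14.5 was 19.1 to 117 CPM in WT and 47.6 to 101 CPM in T1. The sum of 6 neural and Schwann cell markers was 7.73 to 14.9 CPM in WT stroma and 11.6 to 15.8 CPM in T1. The part of these cells in the Crabp1 values was not tested. By level over the 32 libraries, the genes most like Crabp1 were Ddit4l, Frzb and N6amt1 (Pearson's r of 0.92, 0.92 and 0.90 over 12538 genes compared, on log2 CPM centred within tables), which is a description with no test. The sorted Six2-lineage libraries of both stages were centred together. Such r values, here and below, therefore also hold differences between E14.5 and E18.5.

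Crabp2, the binding protein that delivers retinoic acid to receptors, rose in the sorted stroma from 16.8, 25.6, 17.9 and 30.3 CPM to 43.2, 42.6, 47.9 and 40.1 CPM (log2 change 0.94, SE 0.15, adjusted p = 0.00037). In sorted Six2-lineage cells it was 92.6, 86.9 and 80.4 CPM in WT and 121, 124 and 126 CPM in T1 at E14.5, and the change of 0.53 (SE 0.06, adjusted p = 0.000797) stayed under 1.5-fold. At E18.5 the Crabp2 change was 0.30 (SE 0.10, adjusted p = 0.0571). The lineage by genotype interaction for Crabp2 was 0.62 (SE 0.20, adjusted p = 0.0361), and leaving out single libraries moved it to between 0.47 and 0.77 and took the call away in 9 of 14 cases, those without Six2-lineage WT library 3, Six2-lineage T1 libraries 1 or 2, stromal WT libraries 1 or 3, or any 1 of the stromal T1 libraries. The genes most like Crabp2 in level were Ctf1, Nudt14 and Wbp1 (r of 0.97 each).

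In whole kidneys Crabp1 was not called higher. In Six2-driven kidneys Crabp1 was lower in the mutants: it was 14.96 and 8.16 CPM in WT, 5.06 and 4.66 CPM in T1 (log2 change -1.25, SE 0.26, adjusted p = 0.0179, called) and 5.82 and 7.36 CPM in T3 (-0.81, SE 0.26, adjusted p = 0.074, not called). The 2 WT libraries differed more from each other than the mutant libraries did, and the T1 call was lost without either T1 library (adjusted p = 0.0979 and 0.132). In T3 the exact test and DESeq2 called it (-0.81 and -0.80, adjusted p = 0.0237 and 0.00954), and so did the fit without WT library 2 (-1.16, adjusted p = 0.00155). Without WT library 1, the higher of the pair, the T1 change was -0.74. In Foxd1-driven kidneys Crabp1 was 10.4, 10.3 and 10.5 CPM in WT and 12.5, 10.6 and 13.7 CPM in T1 (0.24, SE 0.10, adjusted p = 0.0882). Crabp2 was within 10.4 to 13.1 CPM in all 6 Six2-driven whole kidneys. Over all genes, the chi-square per degree of freedom between the 2 libraries of a group was 164.5 in Six2-driven WT, 13.6 in T1 and 29.2 in T3. The sum of 5 muscle markers was 2.5 to 42.9 CPM in that WT pair, 0.58 to 0.68 CPM in T1 and 1.4 to 2.5 CPM in T3. Of the 4 muscle markers tested, 3 were called lower in T1 and 1 in T3. The part of other tissue in these whole kidney values was not tested.

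The nephron-lineage Aldh1a2 level fell with T1, and more at E18.5 than at E14.5. At E18.5 it was 686, 665 and 743 CPM in sorted WT cells and 342, 365 and 378 CPM in T1 (log2 change -0.94, SE 0.07, adjusted p = 4.15e-07). At E14.5 it was 679, 679 and 713 CPM in WT and 559, 562 and 556 CPM in T1 (-0.29, SE 0.04, adjusted p = 0.00163), which is under 1.5-fold. The groups did not overlap at either stage. The stage by genotype interaction, the test of that difference, was -0.64 (SE 0.08, adjusted p = 0.000156), and Aldh1a2 was the 1 gene of the 9 that it called by the adjusted p alone, where 8.16% of all 25222 genes tested were. In the sorted stroma Aldh1a2 was 118 to 174 CPM in WT and 119 to 140 CPM in T1 (-0.16, SE 0.11, adjusted p = 0.424), and the lineage by genotype interaction was 0.77 (SE 0.15, adjusted p = 0.000856). That interaction, by the adjusted p alone, called 5 of the 9 genes, where 15.9% of 14869 genes tested were called.

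Whole kidneys from the Six2 driver went the same way as the sorted nephron lineage for Aldh1a2. It was 254 and 308 CPM in WT, 188.2 and 184.6 CPM in T1 (log2 change -0.59, SE 0.12, adjusted p = 0.0154) and 161 and 199 CPM in T3 (-0.64, SE 0.12, adjusted p = 0.00954). Neither mutant overlapped WT. The T1 value lies at the 1.5-fold line, and 11 of 13 alternative fits lost its call, with log2 changes from -0.42 without WT library 2 to -0.59 without T1 library 1, and the exact test and the fit without WT library 1 kept it. The T3 call was lost without WT library 2 (-0.47) and without T3 library 1 (-0.49). Foxd1-driven kidneys went the opposite way: 202, 194 and 214 CPM in WT and 288, 265 and 275 CPM in T1 (0.44, SE 0.06, adjusted p = 5.36e-05), under 1.5-fold. The summed level of the 7 nephron progenitor markers went the same way as Aldh1a2 in these kidneys, from 320 to 378 CPM in Six2-driven WT to 183 to 186 CPM in T1 and 155 to 176 CPM in T3, and from 500 to 535 CPM in Foxd1-driven WT to 755 to 925 CPM in T1. In sorted cells 6 of the 7 fell at each stage, with sums of 1797 to 2099 CPM in WT and 926 to 1125 CPM in T1 at E14.5, where Aldh1a2 differed by 1.22-fold, and of 1077 to 1390 CPM and 402 to 512 CPM at E18.5, where it differed by 1.92-fold. The part of those markers in the Aldh1a2 values was not tested. One of them, Cited1, was also the gene most like Aldh1a2 in level over the 32 libraries (r of 0.89).

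Aldh1a1 followed in the same cells at a much lower level. In sorted Six2-lineage cells at E18.5 it was 6.05, 6.85 and 6.31 CPM in WT and 1.09, 0.514 and 0.719 CPM in T1 (log2 change -3.03, SE 0.24, adjusted p = 8.56e-07). At E14.5 it was near the floor in all libraries, with 16, 11 and 0 reads in T1 and 7, 60 and 44 in WT (-1.99, SE 1.06, adjusted p = 0.287), and the library with no read allows up to 0.0216 CPM. Sorted stromal libraries had 4 to 9 reads in WT and 2 or 3 in T1, so the gene did not pass the low-count filter. In Six2-driven whole kidneys Aldh1a1 averaged 6.43 CPM in WT and 6.13 CPM in T1 (-0.071, SE 0.145, adjusted p = 0.818), and the groups overlapped. In T3 it averaged 4.33 CPM and did not overlap WT (-0.571, SE 0.147, adjusted p = 0.0345, under 1.5-fold). In Foxd1-driven whole kidneys it was 3.12, 3.65 and 3.47 CPM in WT and 6.64, 6.03 and 6.16 CPM in T1 (0.88, SE 0.12, adjusted p = 0.000118), with no overlap between the groups. A part of the Aldh1a1 exon sequence, 3.06% of its 50-base stretches, also occurs in its neighbour Aldh1a7, which fell with it in sorted E18.5 cells (-1.64, SE 0.28, adjusted p = 0.000794), so reads from the 2 cannot be fully told apart. Podocyte markers fell from 3127 to 3654 CPM to 234 to 294 CPM and proximal tubule markers from 1249 to 1689 CPM to 434 to 477 CPM in the same sorted cells, and their part in the Aldh1a1 value was not tested.

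Aldh1a3 was not called in any comparison of mutant with WT over all libraries, but 1 WT library decided this in 2 of them. It was 123 and 153 CPM in Six2-driven WT kidneys and 177 and 206 CPM in T1 (log2 change 0.48, SE 0.12, adjusted p = 0.0309, under 1.5-fold), and without WT library 2 the change was 0.67 (adjusted p = 0.00256) and was called. In sorted Six2-lineage cells at E14.5 it was 5.20, 6.70 and 9.74 CPM in WT and 10.8, 7.86 and 9.88 CPM in T1 (0.42, SE 0.22, adjusted p = 0.286), and without WT library 3 the change was 0.69 (adjusted p = 0.0411). Without that library the stage by genotype interaction was -0.81 (adjusted p = 0.0365), against -0.53 (adjusted p = 0.28) with it. In sorted E18.5 Six2-lineage cells it was 20.5, 27.4 and 24.6 CPM in WT and 20.6, 20.7 and 24.7 CPM in T1, and the groups overlapped. Foxd1-driven whole kidneys averaged 79.3 CPM in WT and 98.8 CPM in T1 (0.32, SE 0.06, adjusted p = 0.00161, under 1.5-fold), with no overlap between the groups.

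**Figure D3:**
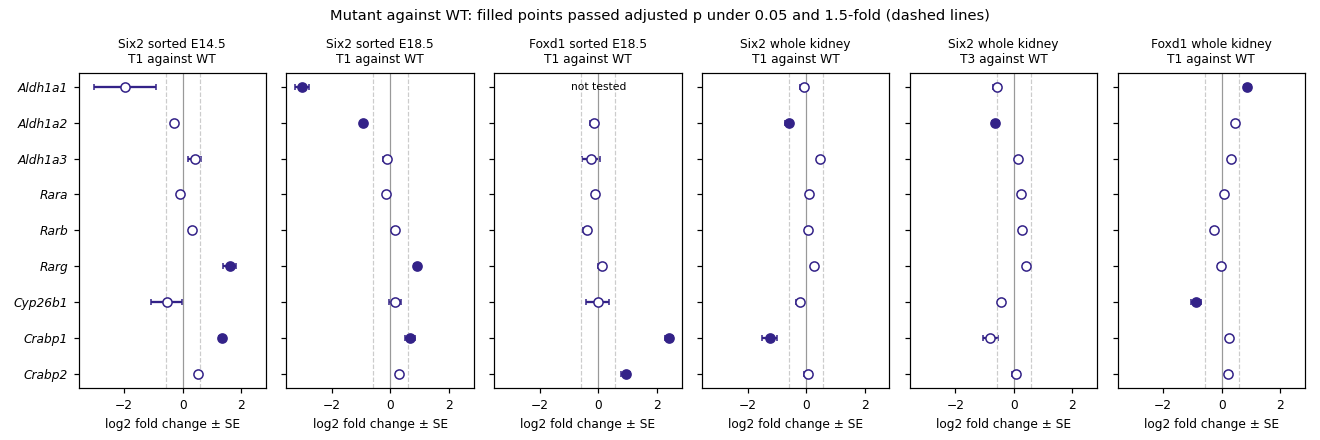
Log2 fold change with its SE for the 9 genes in the 6 comparisons of mutant with WT, filled where the gene was called and open where it was not, with dashed lines at 1.5-fold. Crabp1 is filled right of the line in the 3 sorted comparisons and left of it in Six2-driven T1 whole kidneys, and Aldh1a1 stands furthest left, at -3.03, in sorted E18.5 Six2-lineage cells.

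Of the receptors, Rarg was the one called between mutant and WT. In sorted Six2-lineage cells at E14.5 it was 2.34, 2.49 and 3.33 CPM in WT and 9.32, 5.52 and 9.65 CPM in T1 (log2 change 1.603, SE 0.23, adjusted p = 0.00349). At E18.5 it was 8.38, 6.85 and 7.23 CPM in WT and 14.4, 14.2 and 13.4 CPM in T1 (0.91, SE 0.11, adjusted p = 7.07e-05), so the T1 cells at E14.5 held it at 5.52 to 9.65 CPM, around the 6.85 to 8.38 CPM of WT cells at E18.5. In the sorted stroma Rarg was 24.9 to 31.0 CPM in WT and 25.7 to 34.2 CPM in T1 (0.11, SE 0.13, adjusted p = 0.649), and the lineage by genotype interaction was -0.81 (SE 0.18, adjusted p = 0.00262). Stromal markers moved with Rarg in sorted Six2-lineage T1 cells: 6 of 8 rose at E14.5, among them Col1a1, Dcn and Pdgfra, while Foxd1 fell, and their summed level was 439 to 600 CPM in WT and 862 to 1760 CPM in T1. At E18.5, 4 of the 8 rose and 2 fell, and the sum was 329 to 576 CPM in WT and 793 to 911 CPM in T1. The part of these transcripts in the Rarg rise was not tested. The 3 genes whose levels over the 32 libraries were most like those of Rarg were Col6a2, Col6a1 and Eln (r of 0.96, 0.94 and 0.93).

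Rara, the receptor with the steadiest level, was not called in any comparison and ran from 40.5 to 67.5 CPM over the 32 libraries. Rarb was 42.3, 43.6, 43.5 and 39.0 CPM in sorted WT stroma and 28.7, 34.9, 37.8 and 27.4 CPM in T1 (log2 change -0.39, SE 0.12, adjusted p = 0.036), groups that did not overlap but differed by under 1.5-fold. In sorted Six2-lineage cells at E14.5 Rarb was 20.7, 17.8 and 19.2 CPM in WT and 23.8, 22.5 and 24.1 CPM in T1 (0.30, SE 0.08, adjusted p = 0.0446), also under 1.5-fold, and the lineage by genotype interaction at E18.5 was -0.57 (SE 0.15, adjusted p = 0.0116). Rarb overlaps Top2b and Gm48162 over 38.4% of its exon length, and counting ignored strand, so its values are uncertain.

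Cyp26b1, which clears retinoic acid, fell in Foxd1-driven whole kidneys from 22.6, 42.2 and 39.7 CPM in WT to 19.1, 19.97 and 17.5 CPM in T1 (log2 change -0.89, SE 0.17, adjusted p = 0.00126). The groups did not overlap, but the lowest WT library lay close to the T1 range. Proximal tubule markers summed to 2458 to 2590 CPM in these WT kidneys and to 1102 to 1416 CPM in T1. In sorted E18.5 Six2-lineage WT cells they summed to 1249 to 1689 CPM, where Cyp26b1 averaged 1.90 CPM. In the Foxd1-driven kidneys, 7 ureteric tree markers summed to 718 to 885 CPM in WT and 575 to 624 CPM in T1 (1 called higher, 1 lower). The 7 endothelial markers summed to 1025 to 1114 CPM in WT and 831.5 to 931.7 CPM in T1 (0 higher, 1 lower). The part of these cell types in the Cyp26b1 value was not tested. In Six2-driven kidneys Cyp26b1 was 36.2 and 41.1 CPM in WT, 29.4 and 37.3 CPM in T1 (-0.21, SE 0.12, adjusted p = 0.312), which overlapped WT, and 28.3 and 29.2 CPM in T3 (-0.43, SE 0.12, adjusted p = 0.0442, under 1.5-fold), which did not. Its sorted stromal values rested on 3 to 21 reads per library, and a difference was not detectable at this depth (-0.02, SE 0.40). The genes most like Cyp26b1 in level were Susd6, Nexn and Wnk3 (r of 0.88 each).

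Counted over the set, the sorted Six2 lineage at E14.5 had 2 of the 9 genes called higher, where 4.11% of 22387 genes tested were, and 0 called lower, where 2.28% were. In that comparison 5 passed at an unadjusted p under 0.05, and edgeR's exact test and DESeq2 also called 2 higher and 0 lower. At E18.5, 2 were called higher (background 6.14%) and 2 lower (5.54%). In the sorted stroma 2 of the 8 genes tested were called higher (3.63%) and 0 lower (2.18%), with 3 at an unadjusted p under 0.05 and the same counts from the exact test and DESeq2. In Six2-driven whole kidneys 0 genes were called higher in T1 (2.88%) and 2 lower (4.88%), with 4 at an unadjusted p under 0.05, and the exact test called 2 lower and DESeq2 1. In T3, 0 were called higher (4.34%) and 1 lower (5.28%), with 7 at an unadjusted p under 0.05, and the exact test and DESeq2 each called 0 higher and 2 lower. In Foxd1-driven whole kidneys 1 was called higher (2.65%) and 1 lower (7.53%). The median log2 change of the 9 genes was 0.30 at E14.5 and 0.15 at E18.5 in the sorted nephron lineage, -0.06 over the 8 tested in the sorted stroma, 0.06 and 0.07 in Six2-driven T1 and T3 kidneys and 0.23 in Foxd1-driven kidneys, while over all genes tested it lay between -0.01 and 0.02 in these 6 comparisons. The test between the mutants called 0 of the 9 for T3 against T1, where it called 0.00418% of 23931 genes, and 2 had an unadjusted p under 0.05, Aldh1a1 (-0.50, SE 0.15) and Aldh1a3 (-0.34, SE 0.12), while the exact test and DESeq2 called 0 as well. With 2 libraries a group this does not show that T1 and T3 act alike.

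The rest of the pathway was read from a list of 40 genes sorted by role. Over the whole list, 7 of 34 genes tested rose in sorted Six2-lineage cells at E14.5, where 4.11% of all genes tested rose. At E18.5, 6 of 36 rose (6.14% of all genes) and 4 fell (5.54%), and in the sorted stroma 5 of 30 rose (3.63%) and 3 fell (2.18%). In whole kidneys, 2 of 38 rose (2.88%) and 3 fell (4.88%) in Six2-driven T1, 3 of 38 rose (4.34%) and 5 fell (5.28%) in T3, and 3 of 37 rose (2.65%) and 1 fell (7.53%) in Foxd1-driven T1. Of the genes that rose at E14.5, Adh1, Dhrs3, Ecm1, Meis1 and Rxrg were called higher in WT stroma than in E18.5 WT Six2-lineage cells, and Hoxa4 lower. That comparison called 16 of 32 listed genes higher (34.7% of all genes) and 13 lower (38.0%). In the E14.5 T1 libraries 6 of 8 stromal markers rose and 1 fell, with sums of 439 to 600 CPM in WT and 862 to 1760 CPM in T1. The part of stromal transcripts in these counts was not tested. Among the 10 genes that interconvert retinol and retinal, Adh1 and Dhrs3 were called higher in sorted Six2-lineage T1 cells at E14.5. Dhrs3, which turns retinal back into retinol and is itself known to be induced by retinoic acid, was 33.3 CPM in WT and 74.5 CPM in T1 on average at E14.5 (log2 change 1.18, SE 0.06, adjusted p = 2.07e-05), and 20.5 and 13.04 CPM at E18.5 (-0.65, SE 0.10, adjusted p = 0.000481). The stage by genotype interaction for Dhrs3 was -1.81 (SE 0.11, adjusted p = 4.4e-07). In Foxd1-driven whole kidneys Dhrs3 fell by 0.85 on the log2 scale (SE 0.07, adjusted p = 1.7e-06). Adh1, an alcohol dehydrogenase, rose by 3.44 (SE 0.26, adjusted p = 0.000135) in the nephron lineage at E14.5 and by 1.32 (SE 0.16, adjusted p = 5.66e-05) at E18.5, and fell by 0.79 (SE 0.14, adjusted p = 0.000808) in the sorted stroma, where its WT level of 118 CPM was far above the 4.12 CPM of E18.5 nephron-lineage WT cells. Rdh1, a retinol dehydrogenase of low level, fell at E18.5 in the nephron lineage (-2.20, SE 0.35, adjusted p = 0.000557) and in T3 kidneys (-1.40, SE 0.29, adjusted p = 0.0147). Rdh12, which reduces retinal, rose in the sorted stroma (1.15, SE 0.28, adjusted p = 0.0132) and fell in Six2-driven T1 and T3 kidneys (-0.62 and -0.60, SE 0.12 each, adjusted p = 0.0127 and 0.0128). Aldh1a7 also fell in those kidneys, by 1.06 and 1.52 on the log2 scale (adjusted p = 0.00188 and 0.000358).

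Among 5 genes of uptake, storage and transport, the retinol importer Stra6 rose at E18.5 in the nephron lineage (0.85, SE 0.13, adjusted p = 0.000406) the retinol carrier Rbp4 fell in the sorted stroma (-1.21, SE 0.31, adjusted p = 0.0154), and Lrat, which esterifies retinol for storage, rose in Six2-driven T1 kidneys (0.92, SE 0.24, adjusted p = 0.0454). Of 3 partner receptors, Rxrg was called higher in 3 comparisons, at a low level: by 1.08 in E14.5 nephron-lineage cells, 1.33 in the sorted stroma and 1.48 in Foxd1-driven whole kidneys, with SE of 0.28, 0.29 and 0.22 and adjusted p of 0.0377, 0.00445 and 0.000192. The 6 corepressors and coactivators stayed under the thresholds in the 6 comparisons of mutant with WT, with median log2 changes between -0.12 and 0.11.

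Of 12 genes known to respond to retinoic acid, 11 were tested in sorted Six2-lineage cells, where 4 rose at E14.5 (4.11% of all genes tested rose), and 4 rose and 1 fell at E18.5 (6.14% rose and 5.54% fell). Hoxa4 and Meis1 rose at both stages, and Hoxb4 rose at E18.5 by 1.65 (SE 0.09, adjusted p = 4.13e-08), from 31.3 CPM on average to 98.1 CPM. Ecm1 (2.26, SE 0.38, adjusted p = 0.00623) and Hoxb1 (1.48, SE 0.27, adjusted p = 0.00901) were the other genes that rose at E14.5. Hoxb5 rose at E18.5 (1.31, SE 0.09, adjusted p = 3.64e-07), in Six2-driven T1 kidneys (0.72, SE 0.09, adjusted p = 0.00142) and in T3 kidneys (1.13, SE 0.09, adjusted p = 0.000179), where Hoxa4 and Hoxb4 also rose (0.91 and 0.78). Meis2 rose in Foxd1-driven whole kidneys (0.63, SE 0.05, adjusted p = 1.19e-06). Rarres1, named for its induction by retinoids, fell at E18.5 (-1.98, SE 0.29, adjusted p = 0.000242) and in Six2-driven T1 and T3 kidneys (-1.44 and -1.67). Of the list, 10 were tested in the sorted stroma, of which Hoxa4, Hoxd4 and Meis2 rose (3.63% of all genes tested rose) and Ecm1, which encodes a matrix protein, fell (-0.86, SE 0.10, adjusted p = 1.67e-05; 2.18% of all genes fell). Hoxd4 overlaps Hoxd3, Gm28230 and Hoxd3os1 over 52.3% of its exon length, and Hoxa4 overlaps Gm29430 over 16%. Their values are uncertain to that extent. Ret, the ureteric tip receptor, rose in Foxd1-driven whole kidneys (0.72, SE 0.06, adjusted p = 9.24e-07) and fell in Six2-driven T3 kidneys (-0.85, SE 0.13, adjusted p = 0.00354). The median log2 change of the tested members of this list was 0.54 at E14.5 and 0.47 at E18.5 in the sorted nephron lineage and 0.29 in the sorted stroma. Over all genes tested those medians were 0.00, 0.02 and 0.00. The list includes Hoxb1, Hoxa4, Hoxb4, Hoxd4 and Hoxb5, and the paper reports raised Hox genes in sorted T1 cells of both lineages. The part of the Hox genes in the list medians was not tested.

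**Figure D4:**
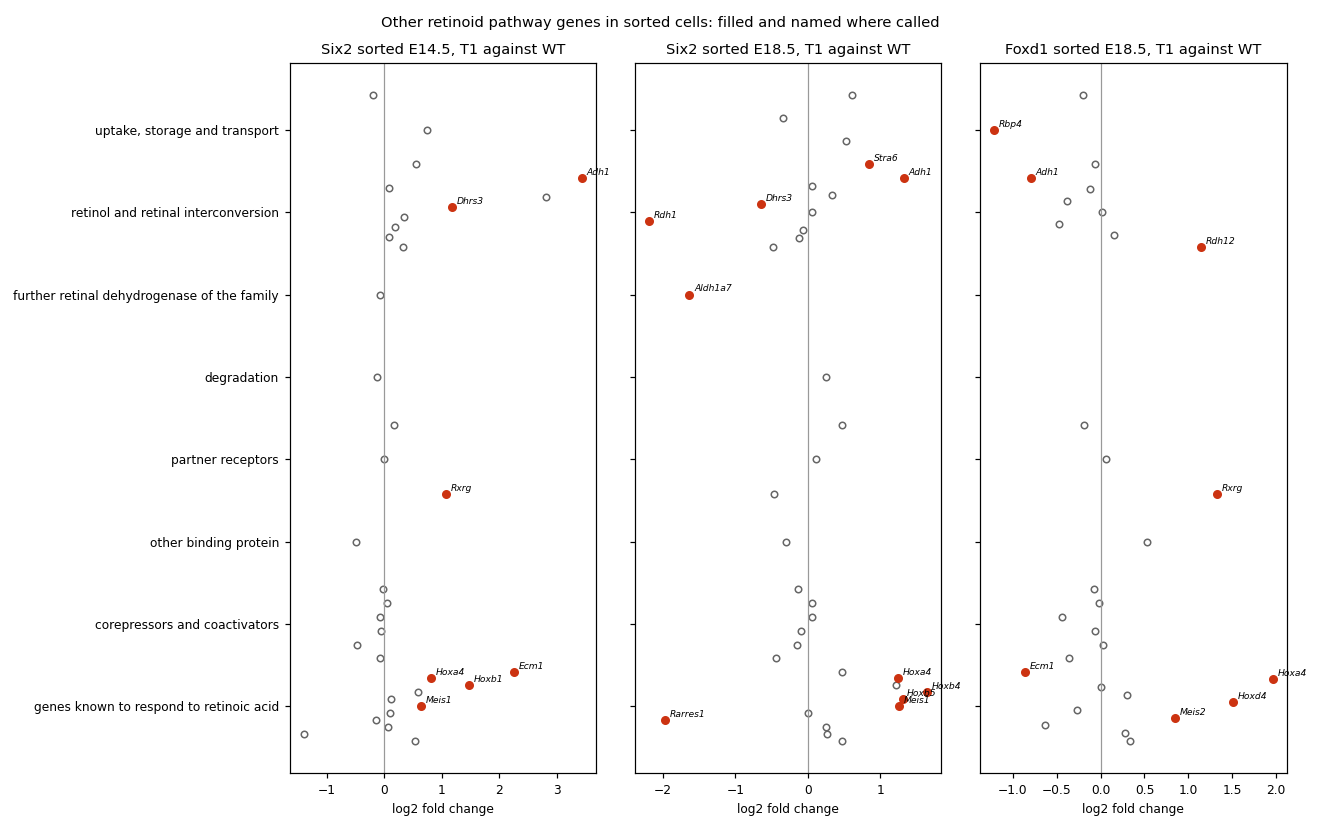
Log2 fold change of T1 against WT for the other retinoid pathway genes in the 3 sorted populations, grouped by role, with called genes filled and named. Dhrs3 lies right of zero at E14.5 (1.18) and left of it at E18.5 (-0.65), and the x axes differ between panels.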

How the data were processed

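RNA was sequenced from whole kidneys and sorted tdTomato-positive cells. The authors prepared poly(A) libraries (a stranded kit for whole kidneys, a low-input kit for sorted cells), aligned reads with HISAT2 to mm10 and deposited raw read counts per gene made with HTSeq without strand. No column was left unmapped. From these counts, edgeR 4.0.16 in R 4.3.3 was used for filtering with filterByExpr, TMM factors and the quasi-likelihood test, with p-values adjusted over all genes tested by the Benjamini-Hochberg method, in 11 comparisons. DESeq2 1.42.0 and edgeR's exact test, which the study used, were alternatives, as were other scalings, no filter, a replicate block and leaving out each library. Log2 CPM used a prior count of 2. Names matched 55450 of 55806 identifiers, and exon lengths came from GENCODE M21 (GRCm38). The fit was tested on simulated counts. No replicate pair agreed within counting noise. One gene of the pathway list is not reported here. The members and lists were chosen with earlier results of these data known. All members are named, and a pathway gene is named where it was called in a genotype comparison or a result turned on it. Intervals for counts of 0 (3 reads) cover counting error only.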

Additional observations from a re-analysis of the deposited data

Results flagged for a closer look

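In the sorted stromal T1 libraries, the highest Crabp1 value, 47.9 CPM, stood further from its neighbours than the spread of the group of 4 allows, and all 4 libraries lay above every WT library. This was tested in 18 sets of 4 libraries (9 genes in 2 groups), and chance singles out about 1 in 20 such sets.

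The effect of T1 differed between stages or lineages, by a test of the difference itself, for 5 genes. Between stages in sorted Six2-lineage cells, the change of Aldh1a2 at E18.5 was -0.645 on the log2 scale relative to its change at E14.5. Between lineages at E18.5, the change in the stroma minus that in the nephron lineage was 0.77 for Aldh1a2, -0.565 for Rarb, -0.81 for Rarg, 1.73 for Crabp1 and 0.62 for Crabp2. The lineages were sequenced in separate runs, so lineage and run cannot be told apart.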

How the results depend on the processing

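Of 31 calls over the 9 genes and 11 comparisons, 26 were kept in every alternative run, and the other 5 were Aldh1a2 in Six2-driven T1 and T3 whole kidneys, Crabp1 in Six2-driven T1 whole kidneys and in sorted E18.5 Six2-lineage cells, and Crabp2 in the lineage by genotype interaction. Counts of genes called moved as follows. In Six2-driven T1 kidneys the 2 calls became 1 with RLE factors, library size only, no low-count filter, DESeq2, the replicate block or T1 fitted with WT alone, and 0 to 2 without single libraries. In T3 the 1 call became 0 with library size only, 2 with no filter, the exact test or DESeq2, 4 with no fold threshold, and 0 to 2 without single libraries. With no fold threshold the counts were 5 in sorted E14.5 Six2-lineage cells and 5 in Foxd1-driven whole kidneys. For the stage by genotype interaction the 1 call became 2 with no filter or DESeq2, and 1 to 2 without single libraries, Crabp1 being the second by DESeq2. The cause was not tested.

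Signs that turned belonged to changes that were not called. With library size only, the log2 changes were 0.0021 for Aldh1a1 in Six2-driven T1 kidneys, -0.12 for Aldh1a2 and -0.075 for Rara between stages, and -0.042 for Rara in the lineage interaction. Crabp2 between T3 and T1 was -0.0043 with RLE factors or DESeq2, -0.0048 with no filter and -0.0028 with the replicate block, and Cyp26b1 in the sorted stroma was 0.0005 with DESeq2. Without single libraries the ranges were -0.14 to 0.029 for Aldh1a1, -0.0033 to 0.27 for Rara and -0.083 to 0.22 for Crabp2 in Six2-driven T1 kidneys, -0.0085 to 0.33 for Aldh1a3 and -0.076 to 0.21 for Crabp2 in T3, -0.21 to 0.093 for Aldh1a2 and -0.15 to 0.15 for Crabp2 between T3 and T1, -0.52 to 0.013 for Aldh1a3 and -0.51 to 0.31 for Cyp26b1 in the sorted stroma, -0.12 to 0.057 for Rarg in Foxd1-driven whole kidneys, -0.0017 to 0.088 for Aldh1a2 between stages, and -0.44 to 0.10 for Aldh1a3, -0.061 to 0.10 for Rara and -0.69 to 0.13 for Cyp26b1 in the lineage interaction.

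Scaling moved the median of all genes between stages from 0.02 to 0.15 with RLE factors and to -0.12 with library size only. Same-numbered libraries had correlations of deviations from group means of -0.08 to 0.10. With so few libraries in a group, these values cannot decide whether the numbers pair the samples. The replicate block changed 1 call, Aldh1a2 in Six2-driven T1 kidneys, at -0.58. Over all genes, 453 were called higher and 874 lower in the stage interaction without sorted E18.5 Six2-lineage WT library 2, against 995 and 1064, and 1268 and 882 with library size only; the lineage interaction gave 935 and 1555 with library size only, against 1226 and 1135. T1 in Six2-driven kidneys gave 456 and 707 without T1 library 1 and 383 and 824 without T1 library 2, against 690 and 1169, and T3 gave 689 and 982 without T3 library 1, against 1039 and 1264. Between T3 and T1, 1 gene was called, against 69 higher and 20 lower by the exact test, 54 and 17 by DESeq2, and 207 and 93 with no filter. Depth limits Aldh1a1 and Cyp26b1 in the sorted stroma.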
